A study of Mus musculus with 6 samples.

Results

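The genes described here encode the mitochondrial respiratory chain and the ATP synthase. They were taken by name, as every probe whose gene symbol matches the families of complex I (Ndufa, Ndufb, Ndufc, Ndufs, Ndufv), complex II (Sdha to Sdhd), complex III (Uqcr and Cyc1), cytochrome c (Cycs), complex IV (Cox4 to Cox8) and complex V (Atp5). The pattern took 127 probes of 89 genes, out of 41174 probes and 21746 named genes on the array, and the brightest probe, averaged over both channels and all arrays, stands for each gene. Of the 89 genes, 39 belong to complex I, 4 to complex II, 9 to complex III, 1 is cytochrome c, 18 belong to complex IV and 18 to complex V. The pattern also took Ndufaf1, Ndufaf3, Ndufaf4, Ndufaf5 and Ndufaf7, which are assembly or maturation factors of complex I, and Dmac2l, listed on the array as an Atp5 gene, and these 6 genes are counted with complexes I and V although they are not subunits.

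RNA of the ventral prostate of FVB mice was compared on 6 two-colour arrays. The red dye carried fl26 mice, transgenic for the arachidonic acid lipoxygenase 15-LOX2 and 2.5 months old, svb9 mice, transgenic for the 15-LOX2 splice variant b and 2.5 months old, or wild type mice 15 months old, with 2 arrays each. The green dye carried wild type mice 2.5 months old on every array. The labels describe each RNA as a pool from 3 mice, whereas the design text describes 6 mice and combined prostatic lobes, and the sources used here give neither the promoter of the transgenes nor whether 1 young wild type pool served several arrays. Each transgenic group is 1 line. The dyes were not swapped, so that dye and group cannot be told apart against young wild type, whereas the dye cancels between groups that were all labelled red. Values below are log2 ratios over young wild type after loess normalization, which sets equally bright probes to a local median of 0, so a ratio says how a gene stood relative to other probes of its brightness. RNA came from whole tissue, in which fewer cells of a type and less RNA per cell cannot be told apart.

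Complexes I and II feed electrons from NADH and succinate to ubiquinone, complex III passes them to cytochrome c, and complex IV passes them to oxygen. Complexes I, III and IV pump protons out of the matrix, and the ATP synthase uses their return to make ATP. Most subunits are encoded in the nucleus and are expressed in every tissue, while a few have isoforms of heart and skeletal muscle, lung or testis. The prostate epithelium is known for secreting large amounts of citrate, a substrate that other tissues oxidize to supply this chain.

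The promoters of 6 genes are shown because these genes gave some of the lowest (Cox7a2, Cox7b, Cox6a1, Ndufb3) and highest (Ndufb8, Atp5k) ratios described below. Each sequence is the 250 bases before the annotated start in RefSeq (build GRCm38.p6), from 5′ to 3′ on the strand of the gene, and capitals mark matches to the motifs given after the sequences.
Cox7a2 promoter, chr9:79759854-79760103, minus strand: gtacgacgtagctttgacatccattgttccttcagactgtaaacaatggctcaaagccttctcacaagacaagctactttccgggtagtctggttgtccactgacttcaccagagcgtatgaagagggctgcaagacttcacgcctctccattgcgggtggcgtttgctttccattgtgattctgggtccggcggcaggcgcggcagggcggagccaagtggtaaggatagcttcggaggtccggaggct
Cox7b promoter, chrX:106015450-106015699, plus strand: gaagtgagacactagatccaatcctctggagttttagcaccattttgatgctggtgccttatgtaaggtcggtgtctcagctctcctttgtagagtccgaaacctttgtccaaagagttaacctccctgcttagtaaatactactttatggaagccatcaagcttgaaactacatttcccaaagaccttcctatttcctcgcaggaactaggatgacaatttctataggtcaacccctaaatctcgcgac
Cox6a1 promoter, chr5:115348959-115349208, minus strand: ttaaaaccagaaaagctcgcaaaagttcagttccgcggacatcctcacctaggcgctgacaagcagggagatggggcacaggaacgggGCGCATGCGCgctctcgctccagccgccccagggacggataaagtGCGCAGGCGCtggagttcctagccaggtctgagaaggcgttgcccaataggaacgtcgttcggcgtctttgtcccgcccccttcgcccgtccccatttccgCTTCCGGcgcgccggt
Ndufb3 promoter, chr1:58586147-58586396, plus strand: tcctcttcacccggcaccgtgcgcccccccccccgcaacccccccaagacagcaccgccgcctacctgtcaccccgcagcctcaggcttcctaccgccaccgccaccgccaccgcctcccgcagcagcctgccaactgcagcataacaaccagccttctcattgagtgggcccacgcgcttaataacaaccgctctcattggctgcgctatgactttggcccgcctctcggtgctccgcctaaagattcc
Ndufb8 promoter, chr19:44555443-44555692, minus strand: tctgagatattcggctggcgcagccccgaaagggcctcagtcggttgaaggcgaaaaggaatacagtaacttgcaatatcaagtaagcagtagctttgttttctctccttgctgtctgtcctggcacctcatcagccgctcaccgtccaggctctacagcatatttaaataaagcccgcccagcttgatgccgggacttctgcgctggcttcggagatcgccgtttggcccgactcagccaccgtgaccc
Atp5k promoter, chr5:108434400-108434649, minus strand: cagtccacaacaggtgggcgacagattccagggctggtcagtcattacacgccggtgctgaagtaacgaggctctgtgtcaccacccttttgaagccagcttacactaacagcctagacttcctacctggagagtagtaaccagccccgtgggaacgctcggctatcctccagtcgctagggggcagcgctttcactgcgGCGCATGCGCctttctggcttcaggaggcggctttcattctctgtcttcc
The motifs of 3 factors were searched on both strands in the promoters of the 73 of 89 genes that the RefSeq table holds. The letters bound by NRF1, a regulator of nuclear genes for mitochondrial proteins, were written as GCGCA, any base, then GCGC, and matched in 12 of 73 genes (16.4%), against 4.23% of 27025 genes. The letters bound by the ETS factor GABP, written as CCGGAAG, also matched in 12 of 73 genes (16.4%), against 7.83% of all genes, and those of YY1, written as AAGATGGC, in 1 of 73 (1.37%), against 1.83%. Among the 6 promoters shown, Atp5k held the NRF1 letters, Cox6a1 held those of NRF1 and GABP, and Cox7a2, Cox7b, Ndufb3 and Ndufb8 held no match in this window. The matches in these promoters did not overlap each other, and a match describes the sequence and is not a measured binding site.

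With the brightest probe standing for each gene, respiratory genes were detected more often than all tested probes on every array. That choice itself favours detection, and dimmer probes of the same genes are not in these shares. Of 87 genes tested, 100% stood well above background in the red channel on fl26 array 1 and on svb9 array 1, against 94.6% and 95.5% of all 27860 tested probes. The share was 97.7% on fl26 array 2, 94.3% on svb9 array 2, 75.9% on old array 1 and 94.3% on old array 2, against 63.2%, 52.5%, 11.5% and 48.8% of all tested probes. The testis isoforms Cox7b2 and Cox8c were not well above background on both arrays of any group and were not tested. Ndufaf7 and the tissue isoforms Cox4i2, Cox6a2, Cox6b2 and Cox8b were not well above background in the red channel of either old array, and no fold is given for them there. The 7 luminal markers of the prostate that were set beside the genes (Pbsn, Sbp, Spink1, Krt8, Krt18, Tgm4 and Msmb) stood well above background on both fl26 arrays and on svb9 array 1 in full, and in 85.7% or more on the others.

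Many respiratory spots of the old arrays were marked as outliers by the image software and were left out. The share was 2.3%, 0%, 0%, 9.2%, 14.9% and 32.2% of the 87 genes on fl26 arrays 1 and 2, svb9 arrays 1 and 2 and old arrays 1 and 2. Over all tested probes it was 0.269%, 0.176%, 0.079%, 0.7%, 1.84% and 5.17% in the same order. Old values were therefore measured for 78 of 87 genes, and 9 bright genes (Cox6a1, Cox6c, Cox8a, Atp5a1, Atp5b, Atp5g3, Atp5pb, Ndufs5 and Uqcrh) had none. Their values with outlier spots kept are given apart, after the complexes. Keeping outlier spots refits the loess curve and so also moved genes whose own spots were not marked. Of the genes measured in both settings, 0 of 87 changed sign in fl26 over young wild type, 5 of 87 in svb9 and 20 of 78 in the old mice, 16 of these to below 0, and the median shift in the old mice was -0.11. Old means given below that changed sign are given in both settings. Among those that kept their sign, Ndufb8, Ndufb10 and Atp5j2 are also given in both settings. With outlier spots kept, the old mean of Uqcr10 was -0.67, of Uqcrfs1 -0.72, of Ndufs1 -0.18 and of Atp5k -0.13. It was 0.05 for Atp5g1, 0.12 for Cyc1 and 0.13 for Sdha in that setting. Each is more than 1.5 times away from the old value below.

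**Figure D1:**
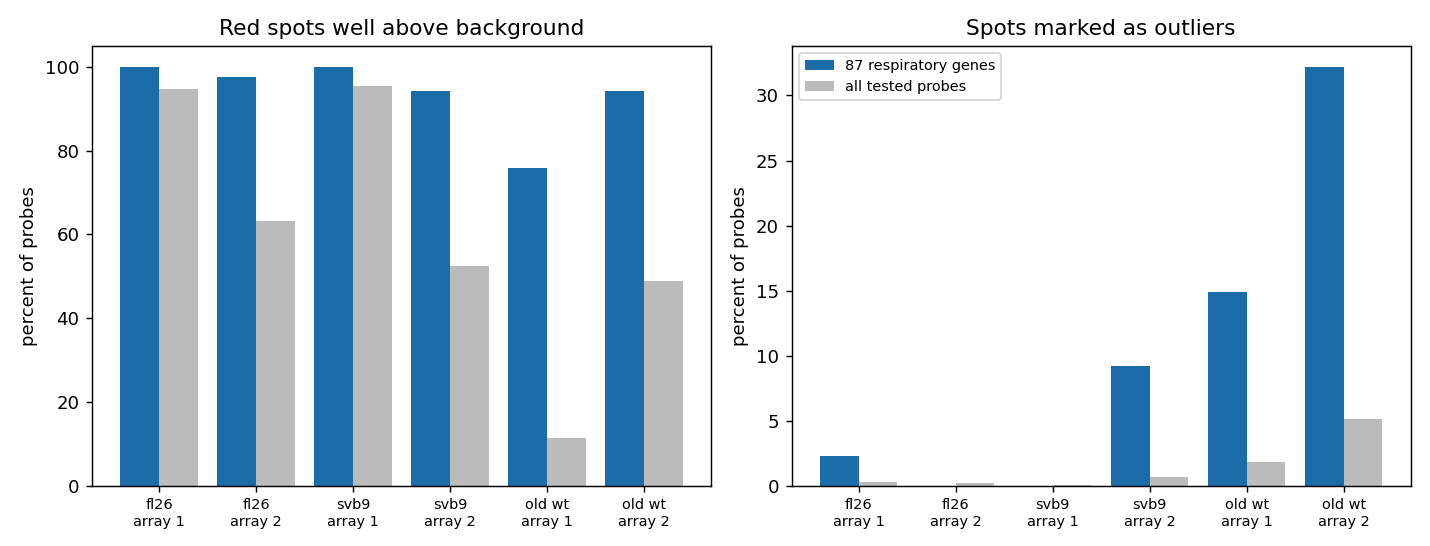
Percent of the 87 tested respiratory genes (blue) and of all 27860 tested probes (grey) whose red spot stood well above background (left) and whose spot was marked as an outlier (right), by array. The respiratory genes, each shown by its brightest probe, a choice that favours detection, exceed all probes in red detection on each array. On old array 2, 32.2% of them were marked as outliers, against 5.17% of all probes.

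Without a replicate block, no respiratory gene passed the test in any comparison. The test was limma on 6 arrays with Benjamini-Hochberg adjustment over all tested probes and a threshold of 0.05. In fl26 over young wild type, 0 of 87 genes were called, against 0.0503% of all tested probes (14 of 27860), and the lowest adjusted p was 0.279. In svb9 over young wild type, 0 of 87 were called, against 0% of all probes, with a lowest adjusted p of 0.980. In old over young wild type, 0 of 78 were called, against 0% of 27626 probes, with a lowest adjusted p of 0.20. The comparisons of fl26 with svb9, fl26 with old wild type and svb9 with old wild type called 0 respiratory genes and 0% of all probes as well. With the replicate number as a block, limma called 6 of 87 genes in fl26 over young wild type (3.59% of all probes), with Cox7a2, Cox7b, Cox6a1, Ndufb3 and Uqcr10 lower and Atp5a1 higher. With this block it called 10 of 78 genes in old over young wild type (4.38% of all probes), with Cox7a2, Cox7b, Cox5b, Ndufb2, Ndufb3, Ndufv1, Ndufab1 and Uqcr10 lower and Ndufv2 and Ndufa8 higher. The block called 0 genes in svb9 over young wild type (0.0431% of all probes), in fl26 over svb9 (0.0359%), in fl26 over old wild type (0.0905%) and in svb9 over old wild type (0%). Adjusted p in the sentences on single genes are those without the block. At an unadjusted limma p under 0.05, 9 of 87 genes differed in fl26 (5 higher and 4 lower; 10.2% of all probes), 2 of 87 in svb9 (1 higher and 1 lower; 4.45%) and 16 of 78 in the old mice (9 higher and 7 lower; 11.4%). Between groups, that count was 2 of 87 for fl26 over svb9 (2.18% of all probes), 8 of 78 for fl26 over old wild type (7.74%) and 5 of 78 for svb9 over old wild type (4.71%). The old over young count, 20.5% of the genes measured, lay above its background share, whereas the fl26 count (10.3%) lay close to its share and the svb9 count (2.3%) below it.

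The middle of the 87 genes stayed close to 0 in each group. The median log2 ratio over young wild type was -0.06 in fl26, with 58 of 87 genes below 0, against 49.94% of all probes below 0 and their median of 0.00. It was -0.02 in svb9, with 46 of 87 genes below 0 (51.33% of all probes), and -0.02 in old wild type, with 41 of 78 genes below 0 (56.08% of all probes, whose median was -0.02). By array, the median was -0.01 and -0.11 in fl26, -0.04 and -0.01 in svb9, and 0.05 and -0.11 in old wild type, so that the arrays of fl26 and of old wild type differed among themselves by more than the group medians did. With median centring of each array in place of loess, the medians were 0.23 in fl26, 0.00 in svb9 and -2.64 in the old mice, while the median of all probes was 0.10, 0.00 and -0.38, so no direction of these genes as a set is given here. The luminal markers had medians of -0.67 and 0.28 on the fl26 arrays, -1.22 and 0.38 on the svb9 arrays and 3.78 (over 4 of 7 with a value) and 0.74 (over 6 of 7) on the old arrays, with 7 of 7 above 0 in the old group mean. With outlier spots kept, the luminal medians on the old arrays were lower, at 1.54 and 0.30. Spots of 5 and 2 of these 7 markers were saturated on the fl26 arrays, of 4 and 2 on the svb9 arrays and of 2 on each old array. In fl26 over young wild type, 4 of 4 basal markers (median 0.40), 6 of 7 macrophage markers (0.26) and 4 of 5 fibroblast markers (0.28) lay above 0, with 0 called by limma (lowest adjusted p among basal markers 0.059). On fl26 arrays 1 and 2 the medians were 0.59 and 0.29 for basal, 0.36 and 0.09 for macrophage and 0.74 and -0.13 for fibroblast markers. The fibroblast mean above 0 thus came from array 1, since 4 of 5 lay below 0 on array 2. The medians of the same lists were 0.01, -0.01 and -0.04 in svb9, and 4 of 5 fibroblast markers lay below 0 in the old mice (median -0.38). Smooth muscle markers went the other way in fl26, with 4 of 6 below 0 (median -0.11) and array medians of 0.03 and -0.23. Above 0 in fl26 were 3 of 3 endothelial (median 0.06), 4 of 6 fat (0.05), 1 of 2 erythrocyte (0.11) and 2 of 3 germ cell markers (0.00). The part of these markers in the respiratory values was not tested.

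The respiratory genes were spread more widely than other probes on 4 of the 6 arrays. The interquartile range of their log2 ratios was 0.19 on fl26 array 1 and 0.15 on svb9 array 1, against 0.19 and 0.14 for all tested probes. It was 0.54 on fl26 array 2, 0.43 on svb9 array 2, 0.42 on old array 1 and 0.45 on old array 2, against 0.27, 0.22, 0.19 and 0.26 for all tested probes. In the same order it was 0.46, 0.31, 0.24 and 0.39 for the mitochondrial ribosome and 0.55, 0.67, 0.65 and 0.50 for 8 carriers of ATP, ADP and phosphate. For the citric acid cycle it was 0.21, 0.27, 0.18 and 0.53. A wide spread was thus not particular to the respiratory genes. On fl26 array 1 and svb9 array 1, 0 genes lay more than 0.5 from 0, whereas 20 of 87 did on fl26 array 2 (23%, against 8.18% of all probes), 10 of 79 on svb9 array 2 (12.7%, against 4.57%), 14 of 74 on old array 1 (18.9%, against 3.12%) and 11 of 59 on old array 2 (18.6%, against 7.89%). The 2 arrays with the narrow spread share an extraction date, and the other 4 arrays fall on the other 2 dates. Extraction date means the day on which the image software processed the array, per the file headers, not a day of RNA extraction. Red signal also differed in this way, with 27151 and 27833 of 41174 probes well above background on the narrow arrays and 3219 to 17623 on the others. The part of the date, of the red signal or of probe brightness in the spread was not tested.

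**Figure D2:**
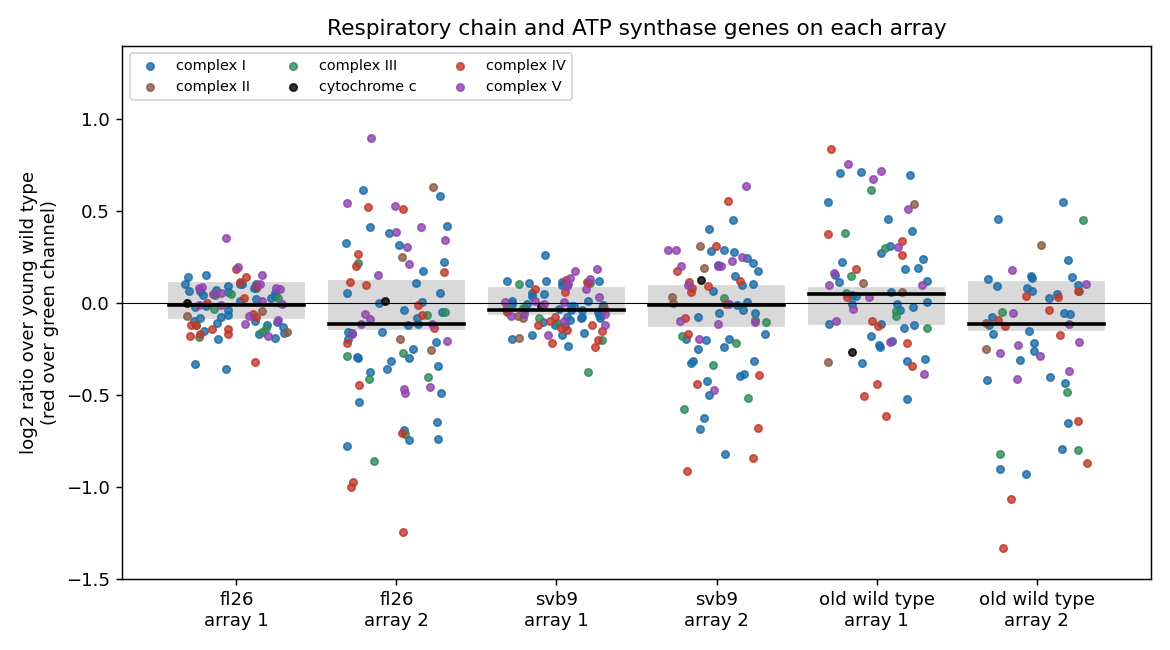
Log2 ratio over young wild type (y axis) of each respiratory gene, coloured by complex, on each of the 6 arrays (x axis), with a black line at the median and a grey box over the interquartile range of all tested probes. The genes lie within 0.5 of 0 on array 1 of fl26 and of svb9 and range from -1.33 to 0.90 on the other 4 arrays.

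Values were also set side by side within each extraction date, where 2 red groups were present. On date 1 the difference of fl26 minus svb9 had a median of 0.01 over 85 genes, with 38 below 0. On date 2 the difference of fl26 minus old wild type had a median of -0.12 over 74 genes, with 48 below 0. Complex III had 7 of 8 genes below 0 there and a median of -0.56. On date 3 the difference of svb9 minus old wild type had a median of 0.05 over 57 genes, with 24 below 0. Complex III had 4 of 5 genes below 0 there, with a median of -0.29. Of all tested probes, 13454 of 27767 lay below 0 on date 1, 13922 of 27306 on date 2 and 13565 of 26375 on date 3. Their medians were 0.00, -0.01 and -0.01. With outlier spots kept, complex III had 6 of 9 genes below 0 on each of these dates, with medians of -0.32 on date 2 and -0.04 on date 3. Each of these differences rests on 1 array a group and has no replicate check.

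In complex I, which takes electrons from NADH, the median ratio was -0.06 in fl26 (28 of 39 genes below 0), -0.05 in svb9 (22 of 39) and -0.01 in the old mice (20 of 38). Ndufs1 carries iron-sulfur clusters of the electron path and had -0.06 ± 0.11 in fl26, 0.02 ± 0.11 in svb9 and -0.11 ± 0.11 in the old mice (limma standard error, n = 2 arrays each, as for all errors below unless 1 array is named). Ndufv1, the subunit that binds NADH and FMN, had -0.20 and -0.20 on the fl26 arrays, -0.07 and -0.39 on the svb9 arrays and -0.33 and -0.44 on the old arrays. All 6 values lay below 0, and the old mean of -0.38 ± 0.10 had an adjusted p of 0.242 in limma. Its partner Ndufv2, another subunit of the NADH-oxidizing module, had 0.10 and -0.16 on the fl26 arrays, 0.12 and 0.29 on the svb9 arrays and 0.55 and 0.46 on the old arrays. Its old mean, 0.50 ± 0.09, a ratio of 1.42, gave the lowest adjusted p among respiratory genes in that comparison (0.20). So these partner subunits of 1 module lay on opposite sides of 0 in old over young wild type, on both arrays.

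Several accessory subunits of the membrane arm of complex I were among the lowest values. Ndufb3 had -0.12 and -0.78 on the fl26 arrays, -0.16 and -0.69 on the svb9 arrays and -0.18 and -0.79 on the old arrays. All 6 values were below 0, and array 2 was lower than array 1 in each group. Its group means were -0.45 ± 0.22, -0.42 ± 0.22 and -0.48 ± 0.22, with adjusted p of 0.550, 0.980 and 0.472. Ndufb2 had -0.01 and -0.74 on the fl26 arrays, -0.08 and -0.50 on the svb9 arrays and -0.52 and -0.93 on the old arrays. Its old mean was -0.73 ± 0.20 (ratio 0.604, adjusted p = 0.266 in limma), while a second, dimmer probe of the gene had -0.03 in old wild type. Ndufa1 had -0.36 in fl26 and -0.48 ± 0.29 in svb9, and its second probe had 0.32 in fl26 and 0.09 in svb9, so the probes of this gene disagree in sign.

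Ndufb8, a further membrane-arm subunit that is often used as a marker of assembled complex I, stood on the other side. It had 0.06 and 0.62 on the fl26 arrays, 0.11 and 0.45 on the svb9 arrays and 0.71 and 0.15 on the old arrays, all above 0. It was the only one of the 53 genes with values on all 6 arrays that was above 0 on each (1.89%, against 5.06% of all probes). Its group means were 0.34 ± 0.19, 0.28 ± 0.19 and 0.43 ± 0.19, with adjusted p of 0.599, 0.980 and 0.455, and its second probe had -0.13 in old wild type. With outlier spots kept, old array 2 had -0.10 for Ndufb8 and the old mean was 0.12. Ndufs4, a subunit whose loss causes complex I deficiency, had 0.34 ± 0.14 in fl26, 0.26 in svb9 on 1 array and -0.11 in old wild type on 1 array (0.15 with outlier spots kept). Ndufb10 had -0.03 ± 0.16 in fl26, -0.02 ± 0.16 in svb9 and 0.42 ± 0.16 in the old mice (adjusted p = 0.397), where keeping outlier spots gave 0.06. Ndufa7, named after its values were seen, had -0.36 on both fl26 arrays and 0.13 ± 0.10 in svb9, and its fl26 mean had an adjusted p of 0.342. A second probe of Ndufa7 had 0.22 in fl26 and -0.10 in svb9, the opposite sign in both lines. Ndufa4, first assigned to complex I and later found with complex IV, had -0.03 ± 0.07 in fl26, 0.00 ± 0.07 in svb9 and 0.15 ± 0.11 in the old mice on 1 array (-0.20 with outlier spots kept).

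Complex II, the succinate dehydrogenase, joins the chain to the citric acid cycle, and its 4 genes had medians of -0.01 in fl26, 0.02 in svb9 and 0.10 in the old mice. On old array 1, only 50% of these genes stood well above background in the red channel. Sdha, the flavoprotein, had 0.63 on fl26 array 2, its other fl26 spot being left out, then -0.03 and 0.31 on the svb9 arrays and 0.06 on old array 1. With the outlier spot kept, Sdha had 0.01 on fl26 array 1, and its second probe had 0.06 in fl26, so the value of 0.63 rests on 1 spot. Sdhb, the iron-sulfur subunit, had -0.13 ± 0.09 in fl26, -0.02 ± 0.09 in svb9 and -0.22 ± 0.09 in the old mice (adjusted p = 0.425 for old). The membrane anchors Sdhc and Sdhd had 0.10 ± 0.11 and -0.21 ± 0.18 in fl26, 0.06 ± 0.11 and -0.09 ± 0.18 in svb9, and 0.21 ± 0.11 and 0.14 ± 0.18 in old wild type, the last being -0.07 with outlier spots kept. No gene of complex II had the same sign on all arrays with a value.

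Complex III, which passes electrons from ubiquinol to cytochrome c, had the lowest medians of the complexes in both transgenic lines. They were -0.13 in fl26 (8 of 9 genes below 0) and -0.11 in svb9 (7 of 9), against -0.00 in old wild type (4 of 8). Uqcr10, a small subunit, had -0.03 and -0.86 on the fl26 arrays, -0.04 and -0.58 on the svb9 arrays and -0.05 and -0.80 on the old arrays. All 6 were below 0, with 1 array of each group near 0, and the means of -0.44 ± 0.26, -0.31 ± 0.26 and -0.42 ± 0.26 had adjusted p of 0.614, 0.980 and 0.580. Uqcrq, another small subunit, named after its values were seen, had -0.18 and -0.40 on the fl26 arrays, -0.37 and -0.34 on the svb9 arrays and 0.15 and -0.05 on the old arrays. Its means were -0.29 ± 0.09 in fl26 (adjusted p = 0.368), -0.35 ± 0.09 in svb9 (adjusted p = 0.980, unadjusted p = 0.00715) and 0.05 ± 0.09 in the old mice. With outlier spots kept its old arrays had -0.33 and -0.33, within the range of the transgenic arrays.

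The catalytic subunits and a core protein of complex III had mean ratios nearer to 0 in the transgenic lines than Uqcr10 and Uqcrq. Cyc1, the cytochrome c1 subunit, had 0.03 ± 0.15 in fl26, -0.11 ± 0.15 in svb9 and 0.19 ± 0.15 in the old mice. Uqcrfs1, the Rieske iron-sulfur protein, had -0.01 ± 0.21 in fl26, -0.08 in svb9 on 1 array and -0.38 ± 0.21 in old wild type, the old arrays lying far apart at 0.06 and -0.82. Uqcrc1, a core protein, had -0.11 ± 0.11 in fl26, -0.12 ± 0.11 in svb9 and 0.18 ± 0.11 in the old mice (-0.00 with outlier spots kept). Cytochrome c itself, Cycs, had 0.01 ± 0.08 in fl26, 0.05 ± 0.08 in svb9 and -0.27 ± 0.11 on the only old array with a value (adjusted p = 0.461).

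Complex IV, the cytochrome c oxidase, held the lowest single values of all respiratory genes. Its median was -0.05 in fl26 (11 of 16 genes below 0), -0.00 in svb9 (9 of 16) and -0.07 in the old mice (7 of 13). The 13 include Cox4i2, Cox6a2, Cox6b2 and Cox8b, whose red spots were not well above background on either old array. The old median is the value of a gene among these and so of no detected gene. Cox7a2, the liver-type isoform of a small nuclear subunit, had -0.17 and -1.25 on the fl26 arrays, -0.15 and -0.91 on the svb9 arrays and -0.61 and -1.07 on the old arrays. All 6 values were below 0, and array 2 was lower than array 1 in each group. Its means were -0.71 ± 0.29 in fl26 (ratio 0.612, adjusted p = 0.483), -0.53 ± 0.29 in svb9 (ratio 0.692, adjusted p = 0.980) and -0.84 ± 0.29 in the old mice (ratio 0.559, adjusted p = 0.361). A second probe of Cox7a2 gave -0.66, -0.64 and -0.82 in the same groups.

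Cox7b, another small subunit, had -0.14 and -0.98 on the fl26 arrays, 0.12 and -0.85 on the svb9 arrays and -0.51 and -1.33 on the old arrays. Its old mean of -0.92 ± 0.31 (ratio 0.529, adjusted p = 0.356 in limma) was the lowest of all respiratory genes, while a dimmer probe of the gene had -0.17. Cox6a1, the liver-type isoform of subunit 6a, had -0.12 and -1.0 on the fl26 arrays and -0.20 and -0.68 on the svb9 arrays, with means of -0.56 ± 0.23 and -0.44 ± 0.23 (adjusted p = 0.506 and 0.980) and no old value. Cox5b, a subunit that binds zinc, had 0.18 and -0.45 on the fl26 arrays, -0.12 and -0.39 on the svb9 arrays and -0.44 and -0.87 on the old arrays, with an old mean of -0.66 ± 0.18 (adjusted p = 0.257). Cox5a, another nuclear subunit, had 0.84 and -0.64 on the old arrays, which gave a mean of 0.10 ± 0.33 (-0.29 with outlier spots kept). In fl26 Cox5a had -0.42 ± 0.33 and in svb9 -0.34 ± 0.33, with a similar distance between arrays.

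Other subunits of complex IV stayed near 0 or above it. Cox4i1, the ubiquitous isoform of the largest nuclear subunit, had -0.32 and -0.14 on the fl26 arrays, -0.15 and -0.17 on the svb9 arrays and 0.34 and -0.12 on the old arrays. Its means were -0.23 ± 0.12, -0.16 ± 0.12 and 0.11 ± 0.12, 0 passed the test, and the old mean was -0.23 with outlier spots kept. Cox8a, the ubiquitous subunit 8, had 0.11 and 0.51 on the fl26 arrays and 0.11 and 0.56 on the svb9 arrays, with means of 0.31 ± 0.15 and 0.33 ± 0.15 and no old value. The muscle isoform Cox7a1 had -0.06 ± 0.11 in fl26, 0.02 ± 0.11 in svb9 and 0.21 ± 0.11 in the old mice, where its red spot stood well above background on 1 of the arrays. The 11 skeletal muscle markers tested had medians of 0.05 in fl26, 0.06 in svb9 and -0.10 in the old mice, with 9.09% of them well above background on old array 1, and their part in the Cox7a1 values was not tested.

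**Figure D3:**
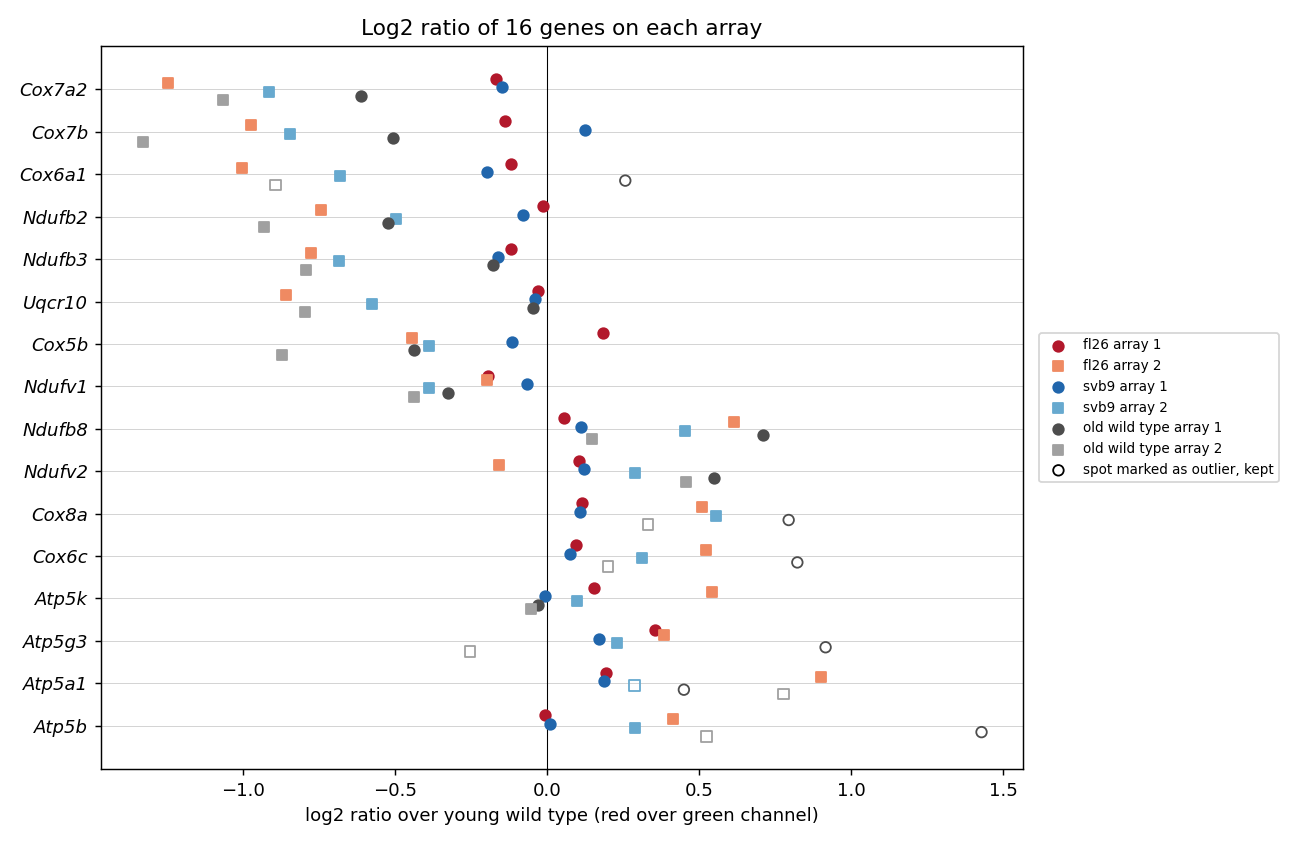
Log2 ratio over young wild type (x axis) of 16 respiratory genes (rows) on the 6 arrays, circles for array 1 and squares for array 2 of each group, with open symbols for spots that were marked as outliers and are drawn at the value they have when kept. Cox7a2, Cox7b and Ndufb3 spread from near 0 to -0.78 or lower, and Ndufb8 lies above 0 on all 6 arrays with outlier spots left out.

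Complex V, the ATP synthase, was the only complex whose median lay above 0 in both transgenic lines, at 0.03 in fl26 (9 of 18 genes above 0) and 0.04 in svb9 (12 of 18), against -0.04 in old wild type (6 of 14). Atp5g3, which encodes a copy of the membrane ring subunit c, had 0.35 and 0.39 on the fl26 arrays and 0.17 and 0.23 on the svb9 arrays. The arrays of each line lay close together, and those of fl26 were above those of svb9. Its fl26 mean of 0.37 ± 0.08 (ratio 1.29) had an unadjusted p of 0.00391 and the lowest adjusted p among respiratory genes in that comparison, 0.279, and its svb9 mean was 0.20 ± 0.08 (adjusted p = 0.980). Atp5g1, which encodes the same mature ring protein, had -0.01 ± 0.08 in fl26, -0.04 ± 0.08 in svb9 and 0.14 ± 0.08 in the old mice.

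Atp5k, subunit e of the membrane part, had 0.16 and 0.54 on the fl26 arrays, -0.01 and 0.10 on the svb9 arrays and -0.03 and -0.05 on the old arrays. The fl26 arrays lay above all others, with a mean of 0.35 ± 0.11 and an adjusted p of 0.359. Atp5a1, the alpha subunit of the catalytic head, had 0.20 and 0.90 on the fl26 arrays and 0.19 on the only svb9 array with a value, and its fl26 mean of 0.55 ± 0.19 had an adjusted p of 0.471, with 0.50 from a second probe. The catalytic beta subunit Atp5b had -0.01 and 0.42 on the fl26 arrays and 0.01 and 0.29 on the svb9 arrays, with means of 0.20 ± 0.13 and 0.15 ± 0.13. Atp5md, a small membrane subunit, had 0.08 and 0.53 on the fl26 arrays and 0.10 and 0.64 on the svb9 arrays, with means of 0.31 ± 0.17 and 0.37 ± 0.17 (adjusted p = 0.610 and 0.980). Atp5mpl, another small subunit, had 0.21 ± 0.12 in svb9 and 0.12 ± 0.12 in fl26. Atp5j2, subunit f, had 0.76 and 0.10 on the old arrays, with a mean of 0.43 ± 0.16 and an adjusted p of 0.403. A second, dimmer probe of Atp5j2 had -0.13 in the old mice, and with outlier spots kept the mean of the first was 0.10.

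**Figure D4:**
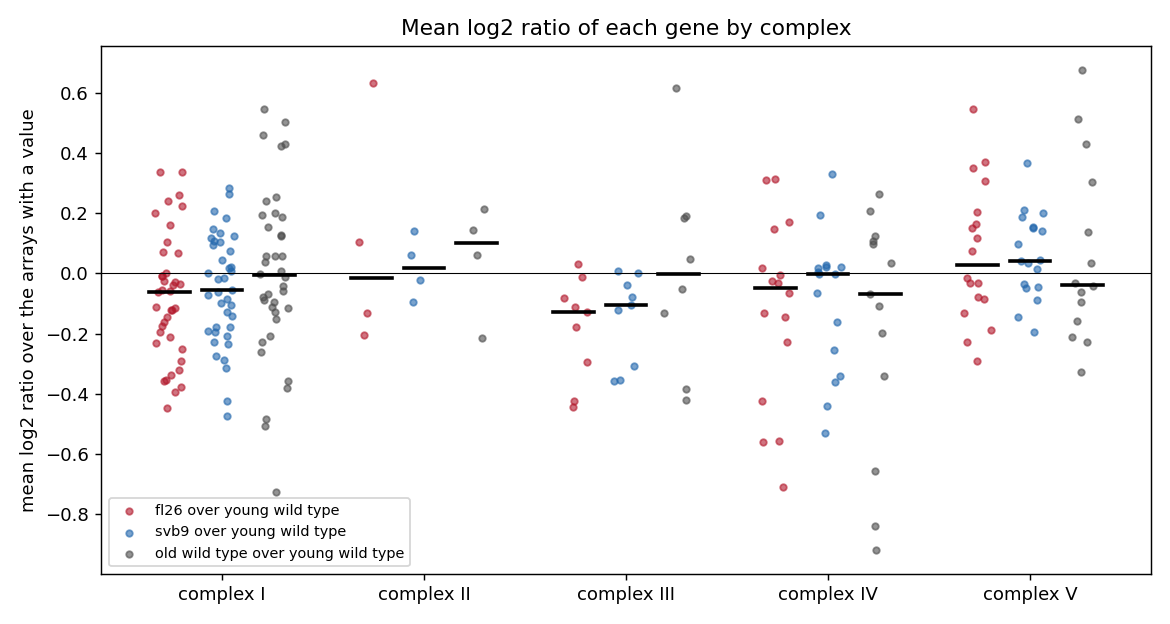
Mean log2 ratio over young wild type (y axis) of each gene, by complex (x axis), for fl26 (red), svb9 (blue) and old wild type (dark grey), with a black line at the median of each set. The medians of the 5 complexes lie between -0.13 and 0.10, cytochrome c is a single gene, and the lowest values, -0.92 and -0.84 in old wild type, belong to complex IV. The old wild type points of complex IV include Cox4i2, Cox6a2, Cox6b2 and Cox8b, whose red spots were not well above background on either old array.

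With outlier spots kept, the 9 bright genes also had old values, and those given here were chosen after their values were seen. Atp5b had 1.43 and 0.52 on the old arrays, and its mean of 0.98 ± 0.22 was the highest of the respiratory genes in that setting (adjusted p = 0.209 in limma). Atp5a1 had 0.45 and 0.78 (mean 0.61 ± 0.17, adjusted p = 0.263), and Atp5pb, the peripheral stalk subunit b, had 0.76 and 0.32 (mean 0.54 ± 0.13, adjusted p = 0.234). Dimmer probes of these 3 genes, measured with outlier spots left out, gave lower old values, at 0.18 and 0.11 for Atp5b, -0.08 for Atp5a1 and -0.15 for Atp5pb. Cox8a had 0.79 and 0.33 (mean 0.56 ± 0.16) and Cox6c had 0.82 and 0.20 (mean 0.51 ± 0.17), with adjusted p of 0.274 and 0.325. In contrast, Atp5g3 had 0.92 and -0.25, and Cox6a1 had 0.26 and -0.89, so their old arrays disagreed in sign. In this setting 55 of 87 genes lay below 0 in old over young wild type, with a median of -0.10, 0 of 87 were called (0.0287% of all probes) and 27 of 87 had an unadjusted p under 0.05 (12.2% of all probes).

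Over the 53 genes with values on all 6 arrays, 6 were below 0 on each (11.3%, against 6.92% of all probes). These were Cox7a2, Ndufb3, Ndufv1, Uqcr10, Ndufb2 and Ndufa6, 4 of complex I and 1 each of complexes III and IV, and all 6 stayed below 0 on each array with outlier spots kept. In that setting, 11 of 87 genes lay below 0 on all 6 arrays. Another 4 lay above 0 on all 6, namely Cox6c, Cox8a, Atp5a1 and Atp5h, and Ndufb8 no longer did. The share of all probes in that setting was not computed. Since every array compares with young wild type in the green dye, the 3 groups may share control RNA, and agreement between them is not read as repeated evidence. There were 24 respiratory genes with 2 or more tested probes. Their probes differed in sign for 9 genes in fl26, 9 in svb9 and 7 in the old mice. They differed by more than 0.5 for 3, 1 and 5 genes, with median ranges of 0.14, 0.14 and 0.15. In the old mice Atp5a1, Atp5pb, Ndufa1 and Uqcrh had a value on only 1 probe and so could not differ there. They entered the old median range as 0, which lowers it.

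Genes that work beside the respiratory chain were read from lists chosen with earlier results of these data known. The 77 genes of the mitochondrial ribosome had medians of -0.05 in fl26 (46 below 0), 0.01 in svb9 (35 below 0) and -0.06 in the old mice (51 below 0). The 18 genes of the citric acid cycle had medians of -0.00, 0.04 and -0.02, the 17 assembly factors tested -0.01, -0.02 and -0.01, and the 21 genes of protein import -0.03, 0.01 and -0.05, each for fl26, svb9 and old wild type in turn. The 14 regulators of mitochondrial biogenesis had -0.07 in fl26 (11 below 0), 0.00 in svb9 and -0.01 in the old mice, and the 8 carriers of ATP, ADP and phosphate had -0.11, -0.08 and -0.05. The 17 glycolysis genes tested had 0.02, 0.09 and 0.04. Among the genes of these lists, 0 were called in the comparisons with young wild type, against the background shares given above. At an unadjusted limma p under 0.05, the mitochondrial ribosome had 6 of 77 in fl26 (7.79%), 4 of 77 in svb9 (5.19%) and 13 of 77 in the old mice (16.9%), against 10.2%, 4.45% and 11.4% of all probes. In the same order, that count was 1, 1 and 4 of 18 for the citric acid cycle, 2, 1 and 2 of 17 for assembly factors and 4, 1 and 5 of 21 for protein import. It was 1, 0 and 1 of 14 for biogenesis, 1 of 8, 0 of 8 and 3 of 7 for the carriers, and 1 of 17, 1 of 17 and 5 of 16 for glycolysis.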

How the data were processed

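Spot intensities of 6 arrays were read by the submitters with Agilent Feature Extraction A.7.5.1, and the deposited files give each spot's mean intensity and median background intensity in both channels, without normalization, per the file headers. The files also hold log10 ratios (red over green) that the software had corrected for background and dye, per the file headers, which served as an alternative, and flags for detection, saturation and outlier spots.

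Log2 ratios were computed in R 4.3.3 with data.table (version 1.17.8) and limma 3.58.1. All 2256 control spots among 43790 spots, and outlier spots, were left out, background was corrected by normexp with an offset of 50, arrays were normalized by loess, and spots of a probe were averaged (41174 probes). The test covered 27860 probes that stood well above background in 1 channel on both arrays of some group. A limma model with 3 group means was fitted to all 6 arrays, each mean tested against 0 and against the other means, 2-sided, with Benjamini-Hochberg adjustment over all probes measured and a threshold of 0.05. The standard error rests on a spread pooled over 6 arrays, and the number of arrays limits precision. Testing against 0 ignores any spread among young wild type pools that arrays have in common. The design text calls the duplicates independent biological samples. Replicate numbers 1 and 2 recur in every group, but the labels state no pairing. Across probes, deviations from group means had r = 0.586 between same-numbered fl26 and svb9 arrays, and r = 0.331 and 0.166 when old wild type was set beside fl26 and beside svb9, so counts from a blocked fit stand beside the main ones.

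Gene names and promoters came from RefSeq (GRCm38.p6). The genes and lists were chosen with earlier results of these data known. Named genes were those with the 4 highest and 4 lowest means per group among genes detected on both arrays with 1 sign, a fixed set of subunits, and up to 6 genes with 1 sign on all arrays; others are marked. Ndufa4l2, part of the fixed set, was not analysed here, and 1 luminal marker is not reported here. The model was tested on simulated data. Alternatives changed the background correction, normalization, filters, outliers, saturated spots, probe choice, samples, covariates and variance trend, or left out each array.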

Additional observations from a re-analysis of the deposited data

How the results depend on the processing

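Under every alternative run except the replicate block, the extraction date as a term and each left-out array included, limma called 0 respiratory genes in the 6 comparisons. With the replicate number as a block, 6 respiratory genes were called in fl26 over young wild type and 10 in old over young wild type, and the block changed no other count of them. With this block, the number of all probes called was 1001 in fl26 and 1211 in old wild type, against 14 and 0 without it, and over all alternatives it ran from 0 to 1001 and from 0 to 1211.

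Medians of the respiratory genes moved with the normalization, and the cause was not tested. With median centring they were 0.23 in fl26 over young wild type, -2.64 in old over young wild type, 0.24 in fl26 over svb9, 2.90 in fl26 over old wild type and 2.67 in svb9 over old wild type. With the deposited Feature Extraction ratios they were -0.19 in old over young wild type, 0.17 in fl26 over old wild type and 0.12 in svb9 over old wild type. Over the 53 genes with values on all 6 arrays, an alternative chosen after seeing the data, the svb9 over young wild type member median was -0.066. Leaving out each array in turn gave medians from -0.113 to -0.00774 in fl26, -0.0351 to -0.00941 in svb9 and -0.112 to 0.0508 in old over young wild type, the last changing sign. Red spots stood well above background for 3219 and 13600 of 41174 probes on the old arrays.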

Other observations

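Probes for 4 genes of the mitochondrial DNA (mt-Co2, mt-Nd4, mt-Cytb and mt-Atp6), which encode subunits of the same complexes and were looked up after seeing the data, had 0 called by limma in the comparisons with young wild type. At an unadjusted p under 0.05, 1 of 4 differed in fl26, 1 of 4 in svb9 and 2 of 3 in old wild type, against 10.2%, 4.45% and 11.4% of all probes. mt-Co2 had -1.37 and -0.27 on the fl26 arrays and -1.24 on the only svb9 array with a value. In old wild type each gene rested on 1 array, with 0.85 for mt-Nd4 and 0.87 for mt-Cytb on array 2, -0.08 for mt-Atp6 on array 1 and no value for mt-Co2. Of these spots, 75% were marked as outliers on old array 1, 50% on old array 2 and 25% on svb9 array 2. For 1 of the 4 genes the spot was saturated on fl26 array 1 and for 1 on svb9 array 1, the arrays with the lowest mt-Co2 values, and for 0 on the other arrays.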
